A study of Mus musculus with 6 samples.

Results

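The genes described here are the *Zfp36* family members *Zfp36*, *Zfp36l1* and *Zfp36l2* and the Btg/Tob family members *Btg1*, *Btg2*, *Btg3*, *Tob1* and *Tob2*. They were chosen by gene symbol because their proteins regulate mRNA decay, and they are 8 of the 47069 genes in the count table. The measurements were bulk RNA-seq libraries from LβT2 cells, an immortalized mouse gonadotrope line that expresses the receptor for gonadotropin-releasing hormone (GnRH). All 6 libraries came from passage 14 cells exposed to 2 nM GnRH for 40 min and then trypsinized, so every level below is that of a GnRH-treated cell, and no vehicle-treated library was analysed here. In the fresh group (3 libraries) the pelleted cells were lysed directly. By the paper's protocol such lysates were then stored frozen, for a time not stated. In the RNA-Best group (3 libraries) the pelleted cells were first kept in the preservation reagent RNA-Best at 4 °C for 4 days or longer. The comparison asked whether the level of a transcript differs between preserved and fresh cells. A single cell line was used, and differences between the libraries of a group may be technical, because the labels do not say whether they came from separate cultures. In bulk libraries, fewer cells that carry a transcript and less of it per cell cannot be told apart.

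The proteins of the *Zfp36* family carry paired CCCH zinc fingers that bind AU-rich elements in the 3′ untranslated regions (UTRs) of mRNAs and recruit the CCR4-NOT complex, which shortens the poly(A) tail. Btg and Tob proteins share an amino-terminal domain that binds the deadenylase subunits Cnot7 and Cnot8, and Tob1 and Tob2 also bind the cytoplasmic poly(A)-binding protein Pabpc1. *Zfp36* and *Btg2* are classic immediate-early genes, whose own transcripts appear quickly after stimulation and decay quickly. In many cells *Tob1* and the Btg genes are known as brakes on proliferation.

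The fresh libraries held between 14477304 and 47438746 counts and the RNA-Best libraries between 4909418 and 11999363. Every pair of libraries within a group differed by more than sampling noise (chi-square of 1.08 to 1.95 per gene), so each was counted as a library of its own. This does not show that they came from separate cultures. Of 6 gonadotrope markers, *Fshb* was at 0 counts in all libraries, and the 6 summed to 3051 to 3094 CPM (counts scaled to the library's total) in fresh and 2539 to 2610 CPM in RNA-Best libraries. Of the 5 tested, 3 were lower by edgeR's test, *Cga*, *Nr5a1* and *Pitx1*, with *Cga*, the hormone alpha subunit gene, at 1813 and 1426 CPM (group means). *Gnrhr*, the GnRH receptor gene, was the 1 higher marker, at 119 and 164 CPM, and *Lhb* did not pass. Over all tested genes, 26.0% were higher and 24.8% lower. With an offset for exonic length, described below, 2 of these markers were higher and 3 lower. *Lhb* was then higher, at 0.24 on the log2 scale (edgeR adjusted p = 0.0029), and *Cga* moved from -0.36 to -0.16. Of 12 markers of other pituitary and non-endocrine cells, 4 were at 0 counts and 10 were under 1 CPM in all 6 libraries. Together the 12 reached 43.2 to 44.4 CPM in fresh and 39.8 to 42.0 CPM in RNA-Best libraries. Nearly all of it came from the endothelial marker *Pecam1*, which fell from 42.4 to 38.9 CPM (edgeR log2 fold change -0.15, adjusted p = 0.0150), while the thyrotrope hormone gene *Tshb*, the other tested marker, rose from 0.909 to 1.64 CPM (0.91, adjusted p = 0.0035). The part of these marker levels in the differences below was not tested.

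The AU-rich motif that *Zfp36* proteins bind was also present in the transcripts of some of these genes, and representative sites are shown because they divide the 8 genes into those with and without the motif. The longest annotated 3′ UTR of each gene was searched on the transcribed strand for the heptamer TATTTAT and for the nonamer TTATTTATT that contains it, with overlapping copies counted. The sequences below are 5′ to 3′ on the minus strand of GRCm38, with 10 bases on each side of the heptamer, which is in capitals.
Zfp36, chr7:28376952-28376978: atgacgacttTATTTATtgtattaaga
Zfp36l1, chr12:80108168-80108194: actgttggatTATTTATtttagaaatt
Zfp36l2, chr17:84184915-84184941: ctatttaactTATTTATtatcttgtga
Btg2, chr1:134077250-134077276: aatgaagagcTATTTATacatgttttt
Tob2, chr15:81849861-81849887: atcacctgctTATTTATgtacgaggtt

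The *Zfp36*, *Zfp36l1* and *Zfp36l2* transcripts each held 3 copies of the heptamer, of which the copy shown lies in a nonamer. *Zfp36* has its 3 copies at bases 575, 590 and 615 after the stop codon, the closest spacing of the 3 genes. *Btg2* and *Tob2* held 1 heptamer each and no nonamer, and *Btg1*, *Btg3* and *Tob1* held none. The *Btg1* 3′ UTR, at 4166 bases the longest of the 8, held 11 copies of the shorter core ATTTA but no heptamer. Among 20805 coding genes with an annotated 3′ UTR, 27.5% held at least 1 heptamer, 4.08% held at least 3, and 7.59% held a nonamer. A match is a description of the sequence and not a measured binding site.

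Levels of different genes were compared as CPM per kilobase of exon. *Btg2* had the highest level, with a mean of 253 CPM per kb over the 6 libraries and a range from 235 to 269 CPM per kb. The next level was that of *Tob1* at 48.5 CPM per kb. It was followed by *Zfp36l2* at 30.3, *Zfp36* at 20.3 and *Btg1* at 14.9 CPM per kb. *Btg2* thus lay above both other Btg genes in level per kilobase. Without a vehicle-treated library, the part of GnRH in this level was not tested. *Tob2* at 8.23 and *Btg3* at 2.90 CPM per kb were the lowest of the tested genes, and *Zfp36l1* was at 0.0116 CPM per kb. Each gene lay above the next one of this order in 6 of 6 libraries, so the order of the 8 levels was the same in fresh and RNA-Best libraries. With the longest transcript in place of all exonic bases as the length, the order of the means was the same, but *Tob2* rose to 13.2 and *Btg3* to 3.87 CPM per kb, *Zfp36* to 25.3 and *Btg1* to 15.7. On that scale *Btg1* lay above *Tob2* in 5 of 6 libraries, with a ratio from 0.995 to 1.39, so these neighbours did not differ in every library.

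*Btg2* alone made up 64.9% to 68.8% of the summed per-kilobase level of the 8 genes. *Zfp36l2* made up 7.63% to 8.41% and *Zfp36* 4.94% to 5.64%. The *Btg2* share was 67.8% to 68.8% in fresh and 64.9% to 66.2% in RNA-Best libraries, and the *Tob1* share 11.2% to 12.2% and 13.2% to 14.3%. Ranked by level per kilobase among all tested genes, *Btg2* stood at the 99.0 percentile, *Tob1* at 91.3 and *Btg3* at 29.6.

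**Figure D1:**
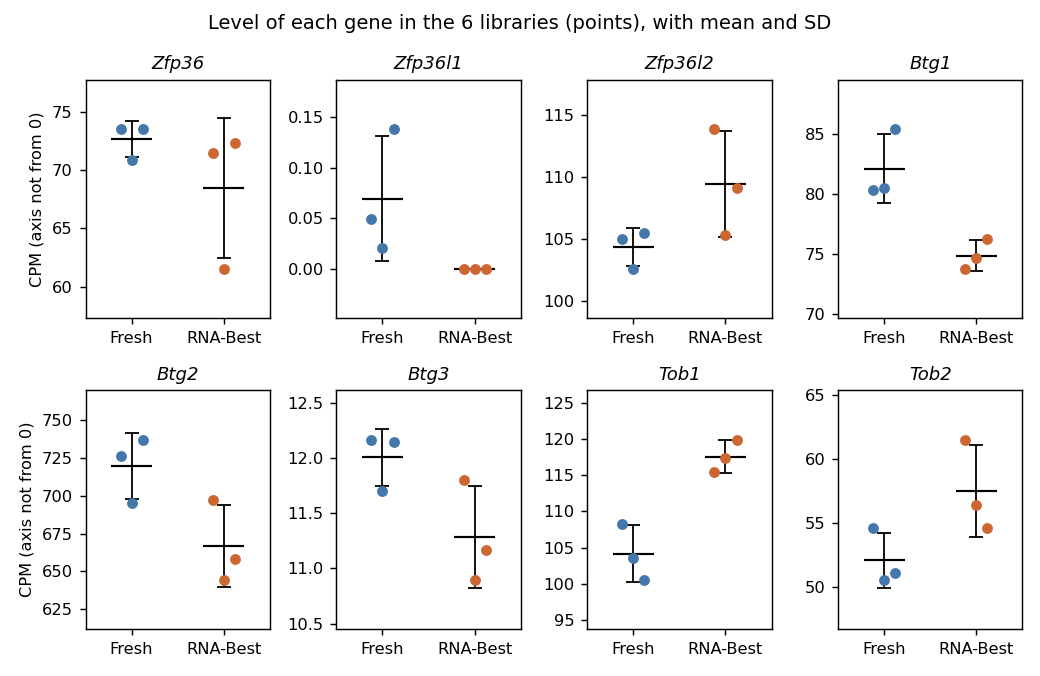
CPM of the 8 genes in the 3 fresh (blue) and 3 RNA-Best (orange) libraries, 1 point a library, with lines at the group mean and bars of 1 SD. Each panel has its own axis, which does not start at 0. The groups are apart for *Btg1* (RNA-Best lower) and for *Tob1* and *Tob2* (RNA-Best higher, narrowly for *Tob2*), and RNA-Best library 2 is low for *Zfp36*. For *Zfp36l1*, at the limit of detection, the fresh points lie above RNA-Best points at 0.

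Each gene's counts in the 2 groups were compared by edgeR's quasi-likelihood test. Adjusted p are Benjamini-Hochberg values over the 14736 genes that passed a filter on low counts, 7 of the 8 genes among them. *Tob1* and *Tob2* were higher and *Btg1* and *Btg2* lower in RNA-Best, and *Zfp36*, *Zfp36l2* and *Btg3* did not pass an adjusted p of 0.05. These 4 of 7 genes, or 57.1%, compare with 50.8% of all tested genes that passed (26.0% higher and 24.8% lower), a share close to the background. Groups did not overlap for 3 of the 7, against 57.5% of all tested genes (RNA-Best above in 30.4% and below in 27.1%). The same 4 passed with limma-voom, where 50.6% of all tested genes did, and 3 passed DESeq2's Wald test, where 40.4% did. Against a 1.2-fold change, edgeR's glmTreat called 11.5% of all tested genes and 0 of the 7. With all libraries thinned to the depth of the shallowest, 41.2% of tested genes and 1 of the 7 passed, and without RNA-Best library 1, 43.3% and 2 of the 7. When low counts were not filtered, the log2 fold changes of all tested genes shifted alike, by a median of -0.05, and with this common shift *Zfp36* passed, at -0.12 (adjusted p = 0.0386), and *Tob2* did not, at 0.08 (adjusted p = 0.309). The median log2 fold change of the 7 was -0.07, and that of all tested genes was -0.01. The largest change of the 7, that of *Tob1*, was larger in size than those of 15.5% of the genes that passed, whose median absolute log2 fold change was 0.27.

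Of the *Zfp36* family, the founding member *Zfp36* (chr7:28376784-28380253, minus strand), which encodes tristetraprolin, was at 73.5, 70.9 and 73.5 CPM in the fresh libraries and at 71.5, 61.5 and 72.3 CPM in the RNA-Best libraries. The groups overlapped, and RNA-Best library 2, the shallowest of all, stood below the other 5. The means were 72.6 ± 1.54 CPM (SD, n = 3) and 68.4 ± 6.01 CPM (SD, n = 3). For *Zfp36* the log2 fold change was -0.07 (SE 0.05, 95% interval -0.16 to 0.02; edgeR adjusted p = 0.212). Without RNA-Best library 2 it was -0.02 (adjusted p = 0.728), and without RNA-Best library 3 it was -0.11 (adjusted p = 0.121). The coefficient of variation of *Zfp36* among RNA-Best libraries, 8.79%, was the highest of the 7 genes in either group, where counting error alone would give 5.75% in that library.

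*Zfp36l2* (chr17:84183931-84187947, minus strand), which encodes another zinc finger protein of the family, had the highest level of the 3 per kilobase. It was at 105, 103 and 105 CPM in the fresh libraries and at 114, 105 and 109 CPM in the RNA-Best libraries. RNA-Best libraries 1 and 3 lay above all fresh libraries and RNA-Best library 2 lay within their range. The group means were 104 ± 1.57 and 109 ± 4.29 CPM (SD, n = 3 each). This is a log2 fold change of 0.06 (SE 0.04, 95% interval -0.01 to 0.14; edgeR adjusted p = 0.153). It was 0.04 without RNA-Best library 1 (adjusted p = 0.518) and 0.08 without RNA-Best library 2 (adjusted p = 0.102).

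*Zfp36l1* (chr12:80107754-80113013, minus strand), the remaining family member, was at the limit of detection. It had 2, 1 and 2 counts in the fresh libraries and 0 counts in each RNA-Best library. A count of 0 allows up to 3 counts, or 0.250 to 0.611 CPM in the RNA-Best libraries, which is more than the 0.0211 to 0.138 CPM seen in the fresh ones. A difference was therefore not detectable at this depth, and no fold change is given. Of the 2990 exonic bases of *Zfp36l1*, 1672 are also annotated to the lincRNA *Gm26669* on the opposite strand, and whether reads were counted by strand is not given in the sources used here. *Gm26669* was at 0 counts in all 6 libraries, and 1318 exonic bases of *Zfp36l1* are not shared. The named pseudogene *Zfp36l1-ps* was at 0 counts in all libraries as well.

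Of the Btg family, *Btg1* (chr10:96617006-96622809, plus strand), first known from a translocation in leukaemia, was at 80.4, 80.5 and 85.4 CPM in the fresh libraries and at 73.7, 74.7 and 76.2 CPM in the RNA-Best libraries. Every RNA-Best library lay below every fresh library. The mean fell from 82.1 ± 2.88 to 74.9 ± 1.26 CPM (SD, n = 3 each). Its log2 fold change was -0.13 (SE 0.04, 95% interval -0.22 to -0.05; edgeR adjusted p = 0.00736), and without RNA-Best library 1 it stayed at -0.12 while its adjusted p was no longer under 0.05. The pseudogenes *Btg1-ps1* and *Btg1-ps2* held at most 1 count in a library.

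*Btg2* (chr1:134075170-134079120, minus strand), the immediate-early member, was at 727, 695 and 737 CPM in the fresh libraries and at 697, 644 and 658 CPM in the RNA-Best libraries. The groups overlapped narrowly, since RNA-Best library 1 lay just above fresh library 2. The means were 720 ± 21.9 and 667 ± 27.2 CPM (SD, n = 3 each), and *Btg2* fell by 0.12 on the log2 scale (SE 0.03, 95% interval -0.18 to -0.06; edgeR adjusted p = 0.000812). This abundant transcript had the smallest standard error of the 7 genes. Its call was kept without any single library, with adjusted p of at most 0.0124.

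*Btg3* (chr16:78332637-78377192, minus strand) was the weakest expressed of the tested genes, with 53.5 counts in the shallowest library, where counting error alone is 13.7%. It was at 12.2, 11.7 and 12.1 CPM in the fresh libraries and at 11.8, 10.9 and 11.2 CPM in the RNA-Best libraries. The groups overlapped. *Btg3* had a log2 fold change of -0.09 (SE 0.09, 95% interval -0.26 to 0.09; edgeR adjusted p = 0.463). Of its 4014 exonic bases, 17.3% are shared with *Cxadr* on the opposite strand, a gene with 438 to 3632 counts a library, so a part of the *Btg3* counts is uncertain unless reads were counted by strand.

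Of the Tob genes, *Tob1* (chr11:94211454-94215495, plus strand) was at 108, 104 and 101 CPM in the fresh libraries and at 115, 117 and 120 CPM in the RNA-Best libraries. All RNA-Best libraries lay above all fresh libraries. The mean rose from 104 ± 3.91 to 118 ± 2.24 CPM (SD, n = 3 each), and its log2 fold change was 0.16 (SE 0.04, 95% interval 0.08 to 0.23; edgeR adjusted p = 0.000696). *Tob1* was the one tested gene of the 7 with whole counts in every library.

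*Tob2* (chr15:81848272-81858796, minus strand) was at 54.6, 50.6 and 51.1 CPM in the fresh libraries and at 61.6, 56.4 and 54.7 CPM in the RNA-Best libraries. The groups touched without overlapping, at 54.61 CPM in fresh library 1 and 54.67 CPM in RNA-Best library 3. *Tob2* had a log2 fold change of 0.12 (SE 0.05, 95% interval 0.02 to 0.22; edgeR adjusted p = 0.0399). Of the 4 calls this one was lost most often. Without RNA-Best library 1 the estimate fell to 0.07 (adjusted p = 0.364) and without fresh library 2 to 0.09 (adjusted p = 0.183). It stayed at 0.11 without fresh library 3 (adjusted p = 0.0692), 0.13 without RNA-Best library 2 (adjusted p = 0.0549) and 0.13 with DESeq2's Wald test (adjusted p = 0.104). Genes annotated in antisense to *Zfp36*, *Zfp36l2* and *Tob2* in a later GENCODE release were not used here, and their part in these counts was not tested.

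Ratios of family members within a library do not depend on how the libraries are scaled. The *Btg2* to *Btg1* ratio of CPM was 9.04, 8.64 and 8.63 in fresh and 9.45, 8.63 and 8.64 in RNA-Best libraries. Both genes fell, and their ratio differed by 0.02 on the log2 scale (exact permutation test, two-sided, p = 0.7). The *Tob2* to *Tob1* ratio was 0.504, 0.488 and 0.508 in fresh and 0.533, 0.481 and 0.456 in RNA-Best libraries, and the groups overlapped. Its difference was -0.03 on the log2 scale (exact permutation test, two-sided, p = 0.7). The *Btg3* to *Btg1* ratio was 0.142 to 0.151 in fresh and 0.146 to 0.160 in RNA-Best libraries, a difference of 0.04 (exact permutation test, two-sided, p = 0.5). Adjusted over these 3 ratios, every p was 0.7. The *Zfp36* to *Zfp36l2* ratio, added after seeing the data, was 0.701, 0.691 and 0.697 in fresh and 0.628, 0.584 and 0.663 in RNA-Best libraries. All RNA-Best values were lower, by 0.16 on the log2 scale (two-sided exact permutation test, p = 0.1, which is the lowest value possible with 3 libraries a group).

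Across all tested genes the log2 fold change moved with exonic length, and its median was -0.22 where exons summed to 1 kb or less and 0.32 where they summed to more than 10 kb. The 7 genes did not follow this order of length. *Tob1*, the shortest at 2288 bases, lies in the class of 2 to 3 kb, where the median log2 fold change was -0.13, and was itself higher in RNA-Best. *Btg2* lies in the same class at 2743 bases, and its log2 fold change of -0.12 was close to that median. *Tob2*, the longest at 6664 bases, was at 0.12, beside a class median of 0.16. *Btg1*, with 5276 bases, was at -0.13, below the median of 0.03 of genes of 4 to 6 kb.

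**Figure D2:**
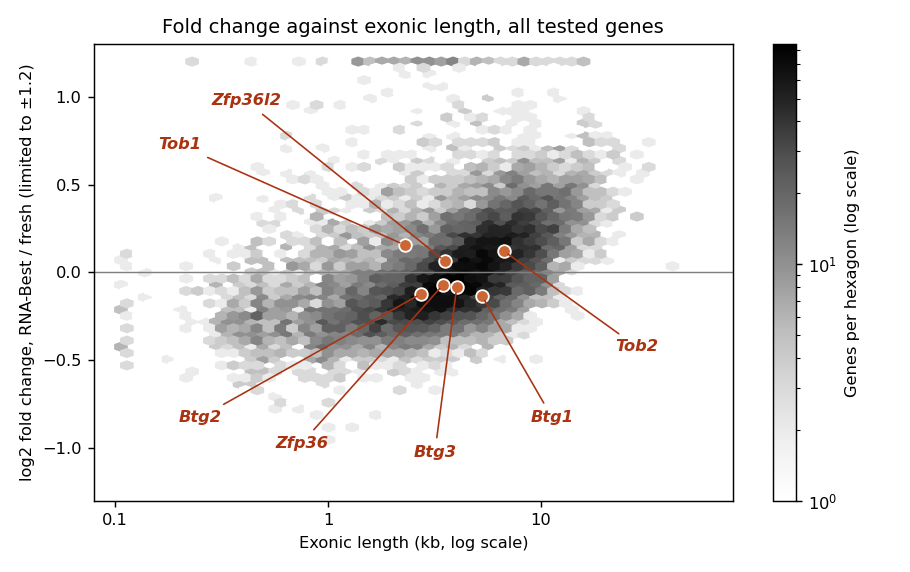
The log2 fold change of RNA-Best against fresh (vertical axis, limited to ±1.2) against exonic length in kb (horizontal axis, log scale) for all tested genes with a length, as hexagons shaded by the number of genes. The 7 tested genes are marked, with *Btg2* and *Tob2* near the centre of genes of their length, *Tob1* above and *Btg1* below.

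With a loess offset for exonic length in each library, 38.2% of all tested genes passed (18.6% higher and 19.6% lower). *Tob1* rose by 0.29 on the log2 scale under this offset (edgeR adjusted p = 2.1e-07), and *Zfp36l2* was higher by 0.12 (adjusted p = 0.00869). *Btg1* stayed lower, at -0.18 (adjusted p = 0.000561). The calls of *Btg2* and *Tob2* were lost, with log2 fold changes of -0.01 (adjusted p = 0.764) and 0.01 (adjusted p = 0.948). *Zfp36* was at -0.01 with this offset, and *Btg3* at -0.06 (adjusted p = 0.643).

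An offset for GC content moved *Tob1* and *Tob2* the other way. Under it 47.8% of all tested genes passed, and *Btg1* was at -0.24 (edgeR adjusted p = 9.06e-06), *Zfp36l2* at 0.14 (adjusted p = 0.00176) and *Tob2* at 0.18 (adjusted p = 0.00331). *Tob1* was at 0.09 with an adjusted p of 0.0510. *Btg2* stayed lower, at -0.13 (adjusted p = 0.00019). *Btg1*, with 43.1% GC the most AT-rich longest transcript of the 8, was the one gene called lower with no offset and with either one, and no gene was called higher in all 3 fits.

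**Figure D3:**
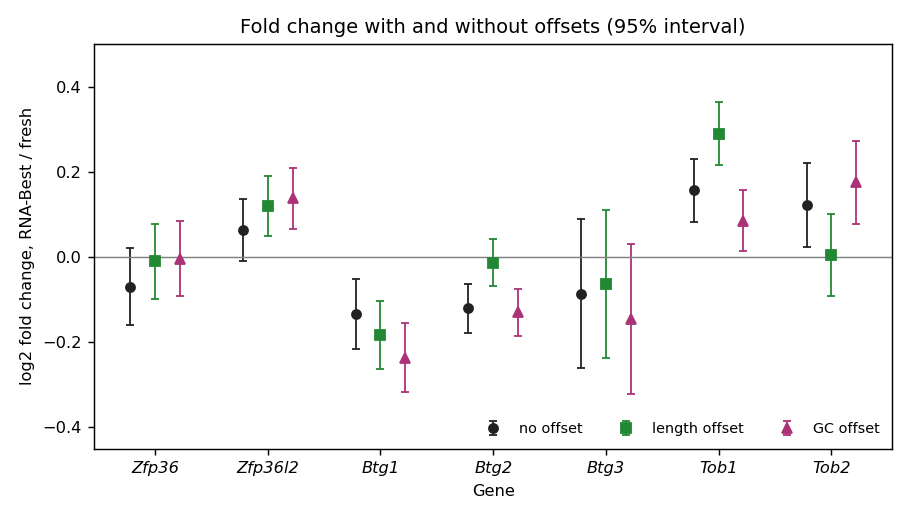
The log2 fold change of RNA-Best against fresh for the 7 tested genes with no offset (black circles), an offset for exonic length (green squares) and an offset for GC content (purple triangles), with bars of the 95% interval from edgeR's standard error. *Btg1* is below 0 in all 3 fits, *Btg2* and *Tob2* move to 0 with the length offset, and *Tob1* moves from 0.16 to 0.29 with the length offset and to 0.09 with the GC offset.

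The other genes of the decay pathway were described in 7 lists that together held 102 genes of the table, of which 87 were tested. Of these 87, 28 were higher and 23 lower in RNA-Best by edgeR's test, and with the length offset 18 were higher and 23 lower. Over all tested genes the shares were 26.0% and 24.8%, and with the length offset 18.6% and 19.6%, against which the counts of each list can be read. Among 14 genes of the deadenylase complexes CCR4-NOT and PAN2-PAN3 and of *Parn*, catalytic and other subunits alike, 7 were higher and the other 7 did not pass, with a median log2 fold change of 0.12. *Cnot1*, the scaffold of the CCR4-NOT complex, rose from 133 ± 3.97 to 175 ± 4.55 CPM (SD, n = 3 each), with a log2 fold change of 0.38 (adjusted p = 9.99e-12). *Cnot1* has 17169 exonic bases, and with the length offset its value was -0.02 (adjusted p = 0.645). With that offset 1 gene of the list was higher and 1 lower, and the list median was 0.01. *Cnot7* and *Cnot8*, the deadenylases that Btg and Tob proteins bind, were at 0.09 (adjusted p = 0.0998) and -0.09 (adjusted p = 0.0657). The direction of *Cnot7* turned with the GC offset, to -0.07 (adjusted p = 0.212), and with the length offset it was at 0.01 (adjusted p = 0.909). *Cnot8* passed without fresh library 1 (-0.11, adjusted p = 0.0475), with the replicate number as a block (-0.10, adjusted p = 0.0495), with the GC offset (-0.12, adjusted p = 0.0126) and under the common shift with no filter (-0.14, adjusted p = 0.00848), and with the length offset it was at 0.02 (adjusted p = 0.760).

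Of 18 genes of decapping and 5′ to 3′ decay, 7 were higher and 6 lower, with a median log2 fold change of 0.06. The 5′ to 3′ exonuclease gene *Xrn1* rose most, from 23.5 ± 0.978 to 35.4 ± 1.56 CPM (SD, n = 3 each; log2 fold change 0.58, edgeR adjusted p = 4.79e-10). *Lsm7*, a subunit of the Lsm ring that binds shortened tails, fell most, by 0.46 on the log2 scale (adjusted p = 3.64e-06). With the length offset 6 genes of the list were higher and 4 lower. Of 15 genes of the exosome and Ski complex, which degrade mRNA from the 3′ end, 2 were higher and 5 lower, with a median of -0.10. The Ski subunit gene *Ttc37* was at 0.72 (adjusted p = 5.81e-09), and the exosome subunit gene *Exosc4* at -0.38 (adjusted p = 1.03e-05). With the length offset *Xrn1*, *Lsm7*, *Ttc37* and *Exosc4* kept their direction, at 0.16, -0.29, 0.43 and -0.23.

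Of 6 genes of poly(A)-binding proteins and their partners, 1 was higher and 2 were lower, with a median of -0.02. *Pabpc1*, which Tob proteins bind, was at 465 ± 8.60 CPM in fresh and 467 ± 5.91 CPM in RNA-Best libraries (SD, n = 3 each), with a log2 fold change of -0.01 (edgeR adjusted p = 0.822) and of -0.12 with the length offset (adjusted p = 0.000326). The nuclear poly(A)-binding protein gene *Pabpn1* was higher by 0.20, and *Paip2*, whose product inhibits translation through Pabpc1, was lower, at -0.14 (adjusted p of 0.00305 and 0.000285). With the length offset they were at 0.28 and -0.09 and with the GC offset at 0.29 and -0.28, each still called. *Pabpn1* was at 0.31 after thinning and at 0.13 without fresh library 1. Of 15 tested genes of other proteins that bind 3′ UTRs, 9 were higher and 1 lower, with a median of 0.20. With the length offset 4 of them were higher and 4 lower, and the median was 0.03. *Zc3h12c*, of a family of endonucleases that cleave inflammatory mRNAs, rose by 0.62 (adjusted p = 2.12e-07). *Elavl1*, which encodes the AU-rich element binding protein HuR that stabilizes mRNAs, was the 1 lower gene, at -0.15 (adjusted p = 0.00348), and with the length offset it was at -0.39 (adjusted p = 2.09e-09). After thinning *Elavl1* was at -0.14 and did not pass (adjusted p = 0.0633).

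Of 11 tested genes for kinases, phosphatases and 14-3-3 proteins that act on or bind *Zfp36* proteins, 1 was higher and 7 were lower, with a median of -0.08. *Mapk14*, which encodes the p38 kinase upstream, was higher by 0.09 (edgeR adjusted p = 0.0328). This call was lost without fresh library 1 (0.07, adjusted p = 0.115) or 3 (0.08, adjusted p = 0.0526) and without RNA-Best library 1 (0.06, adjusted p = 0.210) or 3 (0.10, adjusted p = 0.0540), as well as with DESeq2 (0.09, adjusted p = 0.0842) and under the common shift with no filter (0.04, adjusted p = 0.493). The phosphatase 2A scaffold gene *Ppp2r1a* fell most, by 0.26 on the log2 scale (adjusted p = 3.87e-09). Of 20 mRNAs with known AU-rich elements, 8 passed the filter on low counts, of which 1 was higher and 2 were lower, with a median of -0.03. *Vegfa*, the gene of the angiogenic growth factor, rose from 582 ± 12.4 to 714 ± 34.1 CPM (SD, n = 3 each; log2 fold change 0.28, adjusted p = 6.72e-10). The stress-response gene *Ier3* fell from 5.46 ± 0.0878 to 3.62 ± 1.09 CPM (SD, n = 3 each; log2 fold change -0.67, adjusted p = 0.000448). The second lower gene was *Il2*, named after its values were seen, at -0.45 (adjusted p = 0.0199). The *Il2* call was lost without fresh library 2, RNA-Best library 1 or RNA-Best library 2 (adjusted p of 0.0896, 0.0813 and 0.0661), with the length offset (-0.26, adjusted p = 0.234), after thinning (-0.34, adjusted p = 0.373) and with DESeq2 (adjusted p = 0.131). The *Ier3* call was lost after thinning (-0.48, adjusted p = 0.104).

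**Figure D4:**
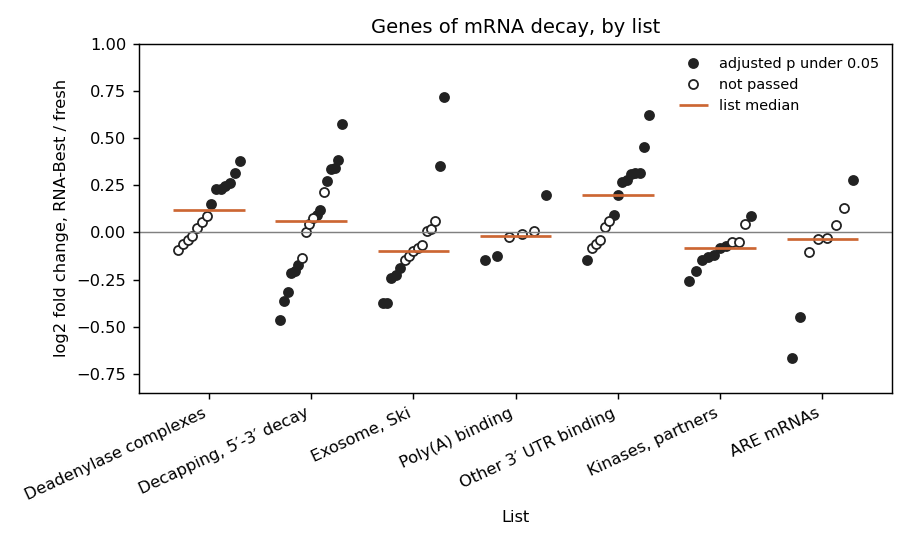
The log2 fold change of RNA-Best against fresh for each tested gene of 7 lists of mRNA decay, ordered by value within a list, with filled points for adjusted p under 0.05 in edgeR's test and orange lines at list medians. Genes of deadenylase complexes (median 0.12) and other 3′ UTR-binding genes (median 0.20) lie mostly above 0, exosome and Ski genes (median -0.10) mostly below, and decapping genes on both sides.

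Fold changes of all tested coding genes were then set side by side by the heptamer shown above, as a description. Of 3657 tested coding genes with at least 1 TATTTAT in the 3′ UTR, 44.7% were higher and 13.1% lower in RNA-Best by edgeR's test, with a median log2 fold change of 0.13. Of 8508 without it, 21.0% were higher and 31.2% lower, with a median of -0.05. Exonic length moved with this split, with medians of 5946 bases for genes with and 3996 bases for genes without the motif. The length of the 3′ UTR did so too, with medians of 2341 and 1025 bases. The part of 3′ UTR length and of GC content in this difference was not tested. With the length offset the medians were 0.03 and -0.03, with 26.4% higher and 17.5% lower among genes with the motif and 14.1% higher and 24.7% lower among genes without it. Among the 7 tested genes the motif did not go with the direction, since *Zfp36*, *Zfp36l2*, *Btg2* and *Tob2* hold it and were at -0.07, 0.06, -0.12 and 0.12, while *Btg1*, *Btg3* and *Tob1* lack it and were at -0.13, -0.09 and 0.16.

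For likeness of pattern, Pearson's r of log2(CPM + 1) over the 6 libraries was computed between each of *Zfp36*, *Btg2* and *Tob1* and 14670 tested genes, as a description. *Zfp36* was most like *Med17*, *Etfbkmt* and *Ptrh2*, with r of 0.994, 0.992 and 0.991. *Btg2* was most like *Gm10247*, *Hsd17b1* and *Rbbp7*, with r of 0.997, 0.994 and 0.990. *Tob1* was most like *Senp7*, *Rnf149* and *Gm14391*, each with r of 0.996. An r above 0.95 was common, in 77 genes for *Zfp36*, 131 for *Btg2* and 603 for *Tob1*, and the 6 points share the group difference and the library depths. After each group mean was removed, 1 of the 3 genes most like *Tob1* (*Rnf149*) was again among its closest 3, and 0 of 3 were for *Zfp36* and for *Btg2*.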

How the data were processed

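Bulk RNA-seq of 3 fresh and 3 RNA-Best libraries of LβT2 cells was used. The authors sequenced poly(A) libraries as single reads, aligned them to the GRCm38 genome (mm10) with STAR 2.5.1b and counted them per gene with featureCounts 1.5.0-p1 (versions per the submitters' processing notes). The values the authors deposited are estimated counts per gene without any scaling. In each library 9.36% to 16.3% of them were not whole (tolerance 0.001), and the setting that divided reads is not given in the sources used here. Whether reads were counted by strand is not given there either, so genes that overlap on opposite strands are uncertain.

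Counts were rounded and tested in R 4.3.3 with edgeR 4.0.16 (quasi-likelihood test, TMM scaling with factors from 0.994 to 1.01, filterByExpr, minimum count 10), with Benjamini-Hochberg adjustment over all 14736 tested genes and calls at 0.05. CPM used column totals of the deposited values, and 95% intervals are 1.96 standard errors. Alternatives were limma 3.58.1 (voom, the test of the study), DESeq2 1.42.0 (Wald test and size factors), edgeR's glmTreat against a 1.2-fold change, no filter, a replicate block, loess offsets (span 0.5) for exonic length or GC content, thinning to 4909268 counts and leaving out each library. The study also required a minimum fold change with voom, which was not applied here. With depths from 4909418 to 47438746 counts, floors of 3 counts ranged from 0.0632 to 0.611 CPM and cover counting error only. Single ratios were compared by exact permutation tests.

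Positions, exonic lengths, GC content and 3′ UTRs came from GENCODE M21 on the same assembly, later than the authors' M8 release. It gave a length for 46574 and a symbol and GC content for 46488 genes. The longest annotated 3′ UTR of a gene was searched, in place of all its 3′ UTRs joined as first planned. *Exosc6* and *Prmt1* were not analysed here.

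The 8 genes and all lists were chosen with earlier results of these data known. Named are the 8 genes, the called genes with the highest and lowest log2 fold change in each list (*Il2* was added after its values were seen), *Cnot1*, *Cnot7*, *Cnot8*, *Pabpc1*, the markers, and the 3 genes most like *Zfp36*, *Btg2* and *Tob1* in pattern.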

Additional observations from a re-analysis of the deposited data

How the results depend on the processing

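Of 16 alternatives, *Btg1*, *Btg2* and *Tob1* passed in 13 each, *Tob2* in 6, *Zfp36l2* in 3 and *Zfp36* in 1. *Btg3* passed in 0 of the 16, with edgeR, limma-voom and DESeq2 among them (edgeR's unadjusted p = 0.362, and lowest adjusted p over the alternatives 0.195). The direction of 6 of the 7 genes was kept in all 16, and that of *Zfp36* was turned by thinning to the shallowest library, to 0.020 (adjusted p = 0.844). Thinning left 1 of the 7 genes called (*Btg2*), with the values of the lost calls at -0.12 (*Btg1*), 0.12 (*Tob1*) and 0.14 (*Tob2*), and leaving out single libraries left between 2 and 4, with the 2 reached without RNA-Best library 1. Against a 1.2-fold change, edgeR's glmTreat called 1693 of all genes, 11 genes of the 7 pathway lists (51 with the quasi-likelihood test) and 0 of the 7 genes, of which 4 had an unadjusted p under 0.05 in the quasi-likelihood test. With the length offset 2 genes of deadenylase complexes in place of 7 and 5 kinase and partner genes in place of 8 were called, with the GC offset 12 exosome and Ski genes in place of 7, and after thinning 1 mRNA with AU-rich elements in place of 3. With no filter, where all fold changes shifted alike by a median of -0.05 (log2), 3256 of all genes were higher and 4381 lower, in place of 3828 and 3651. The difference, RNA-Best minus fresh, in the log2 ratio of *Btg2* to *Btg1* was -0.016 after thinning and between -0.022 and 0.044 without single libraries, that in *Tob2* to *Tob1* was 0.013 after thinning and between -0.095 and 0.018, and that in *Btg3* to *Btg1* was 0.085 after thinning and between -0.00034 and 0.068. The cause was not tested. Per kilobase of the longest transcript, the level of *Tob2* was 13.2 in place of 8.23 CPM. Ratios with *Zfp36l1* could not be computed, because it had 0 counts in RNA-Best, and its fold change was not fitted. Depth limits *Zfp36l1* and *Btg3* most.

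With the replicate number as a block (replicate block), 7472 genes and 4 of the 7 were called. Same-numbered libraries did not deviate together (r of -0.0084, 0.0122 and -0.0077, closest to their own number in 1 of 6 libraries), so the numbers were treated as names only.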

Other observations

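The remaining genes of both families were not tested. *Zfp36l3* was at a mean of 0.320 CPM in fresh and 0.287 CPM in RNA-Best libraries, and *Btg4* at 0.123 and 0.144 CPM. Both groups overlapped for either gene.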
